A study of Mus musculus with 8 samples.

Results

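The genes described here are the response genes of type I interferon, a list of 35 mouse genes set by name, with no measured value in its rule. Of the 35, 33 had a probe set annotated to that gene alone, each of them 1 probe set, out of 23410 probe sets with a gene symbol and 35557 in all. Ifi44 and Isg15 were not analysed here. The genes were followed in cells sorted from the tail tumors of TAX-LUC mice, in which the Tax oncogene of human T-cell leukemia virus is driven by the human granzyme B promoter, which cytotoxic lymphocytes use, and a luciferase reporter by the viral long terminal repeat. Both genotypes carried Tax and luciferase and differed in Il15, the gene of a cytokine that natural killer cells depend on. IL-15-/- mice were made by crossing a C57BL/6 deletion line with the TAX-LUC line, which is of mixed C57BL/6 and FVB origin. The sort gave CD16/32HI cells, labelled malignant, and CD16/32LO cells, labelled tumor infiltrating. The study describes the CD16/32HI cells as enriched in malignant large granular lymphocytes and the CD16/32LO cells as enriched in neutrophils. There were 2 arrays in each of the 4 groups of genotype and population, 8 arrays in all, and in every group replicate 1 came from a mouse of 14 months and replicate 2 from a mouse of 12 months. The CD16/32HI and CD16/32LO arrays of 1 genotype and replicate number were taken as the same mouse, which gives 4 mice.

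Type I interferons are secreted when a cell senses foreign or misplaced nucleic acid. They bind a receptor made of Ifnar1 and Ifnar2, whose kinases activate STAT proteins, and a complex of Stat2, Irf9 and a partner STAT then enters the nucleus and binds a short DNA element, the interferon-stimulated response element. The genes switched on in this way include more sensors and signalling factors, which amplify the response, and effectors that cut viral RNA, stop its translation or tag proteins with ubiquitin or ISG15. Natural killer cells, neutrophils and macrophages all respond to interferon.

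The DNA element can be read in the promoters of several members. It was searched as its core, GAAANNGAAA on either strand, where N is any base, in the RefSeq promoter windows of GRCm38.p6, which run from 250 bases before each annotated start to 50 bases past it. Of all genes with a window 3.99% held the core, as did 10 of the 24 measured members that have one. Of these 10, Ddx58 alone was called in a main comparison. The stretches below hold the core in Ddx58 and in members that were not called. Each is read 5′ to 3′ on the strand of its gene with the matches in capitals. On the coding strand of some genes the core appears as its complement, TTTCNNTTTC. Overlapping matches run together.
Ifit1, chr19:34640777-34640821, plus strand: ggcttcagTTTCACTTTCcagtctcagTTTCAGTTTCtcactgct
Ifit3, chr19:34583365-34583424, plus strand: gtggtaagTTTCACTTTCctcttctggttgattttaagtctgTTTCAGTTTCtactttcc
Oas1a, chr5:120907526-120907553, minus strand: cttctcggGAAATGGAAACTGAAAatct
Oas3, chr5:120777717-120777742, minus strand: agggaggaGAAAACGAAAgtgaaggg
Rsad2, chr12:26456555-26456580, minus strand: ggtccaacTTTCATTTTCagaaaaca
Stat2, chr10:128270268-128270293, plus strand: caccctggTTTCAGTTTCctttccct
Ddx58, chr4:40239806-40239831, minus strand: tgaggcagTTTCGATTTCctatggcc

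Ifit1, Ifit3 and Oas1a each held 2 matches and the other genes shown held 1, and that of Ddx58 begins just past the annotated start. The second element of interferon signalling, which STAT dimers bind, has the core TTCNNNGAA, which reads the same on both strands. It was found for 9.55% of genes and for 6 of the 24 members. Isg20, which had no match to the first core, held 1 match to the second, and Oasl2, the member with the widest range over the arrays, held neither in its window, of which the 100 bases before the start are printed.
Isg20, chr7:78913343-78913367, plus strand: ggggagggTTCTTGGAAtttttcct
Oasl2, chr5:114896834-114896933, plus strand: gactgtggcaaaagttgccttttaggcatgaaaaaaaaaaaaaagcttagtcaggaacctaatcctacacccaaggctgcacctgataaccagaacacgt

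Before the comparisons, the sort labels were checked against marker genes. In 3 of the 4 mice, macrophage markers were higher in CD16/32HI (6 of 7 called by limma) and neutrophil markers lower (8 of 8 called), and no marker of natural killer cells or large granular lymphocytes was called higher (3 of 8 called lower, among them Gzmb and Nkg7). The 14-month IL-15-/- mouse (replicate 1) ran the other way. Its CD16/32HI array had 12.62 of the neutrophil receptor gene Cxcr2 and 7.68 of the macrophage gene C1qa, and its CD16/32LO array had 9.93 and 10.73, where the other CD16/32HI arrays had 8.43 to 9.86 and 10.10 to 11.43. All values are log2 signals. The populations are therefore called here by their sort, and the labels were kept. Whether the 2 arrays of this mouse were exchanged was not tested, and an exchange would move each of its values to the other population (8.94 and 6.52 for Oasl2). Counts of calls and the widest differences are given with and without it. Exactly equal values fell into 3 sets of arrays, the 4 of replicate 1, the IL-15+/+ pair of replicate 2 and the IL-15-/- pair of replicate 2, with none shared between sets, and the median signal of the arrays lay between 5.62 and 5.93, lowest in the IL-15+/+ pair of replicate 2.

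The members varied more across the 8 arrays than most probe sets did. The distance between a gene's highest and lowest array exceeded 1 on the log2 scale in 21 of 33 members (63.6%), against 29.2% of all probe sets with a symbol, and its median was 1.06 against 0.784. Oasl2 had the widest range, 2.84, and its relative Oasl1 the narrowest, 0.386. In the map of all members by array the deviations of Oasl2, Oas2, Samd9l and Lgals3bp stand out.

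**Figure D1:**
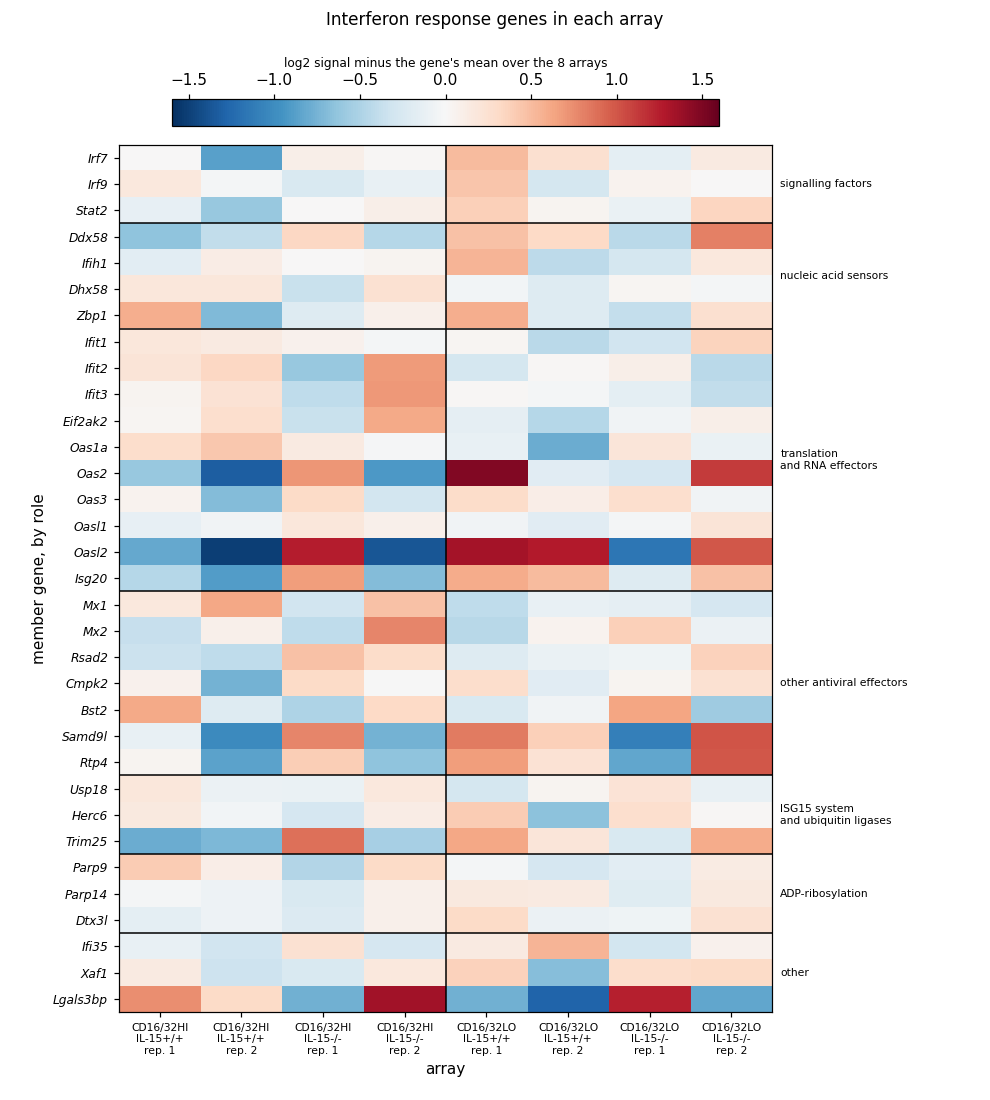
Log2 signal of 33 interferon response genes (rows, ordered by role) in the 8 arrays (columns), each as the difference from that gene's mean over the arrays, red for higher and blue for lower. Oasl2, Oas2, Samd9l and Lgals3bp show the strongest colours, and in these rows the columns of IL-15-/- replicate 1 carry the colours of the opposite population.

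The first question was what loss of IL-15 did to these genes in the CD16/32HI cells. None of the 33 members was called (limma, adjusted p under 0.05 over all probe sets with a symbol), against 5 of 23410 probe sets (0.0214%). At an unadjusted p under 0.05 there was 1 member against 4.93% of all probe sets. Of the members 19 were higher and 14 lower in IL-15-/-, and their median difference was 0.05 against 0.09 over all probe sets. Centring the arrays on their medians brought the members' median to -0.06, and quantile normalization to -0.18.

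Among the signalling factors, Irf7, the factor that drives interferon production once it is induced, gave 5.70 and 4.82 in the IL-15+/+ CD16/32HI arrays and 5.78 and 5.71 in the IL-15-/- arrays, replicate 1 first. Stat2 gave 6.98 and 6.50 against 7.12 and 7.20. Both IL-15-/- arrays of these genes lay above both IL-15+/+ arrays, by little in replicate 1. The sensor Ddx58, also called RIG-I, which binds viral RNA, gave 7.25 and 7.50 against 8.22 and 7.44, with the higher value in the array of the IL-15-/- mouse that ran opposite to the others.

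Effectors had the widest differences. Oasl2, a relative of the oligoadenylate synthetases, gave 6.86 and 6.17 in IL-15+/+ and 8.94 and 6.32 in IL-15-/-, a difference of 1.11 with an SE of 0.86 (limma adjusted p = 0.864). Oas2, a synthetase whose product activates RNase L, gave 5.96 and 5.24 against 7.27 and 5.64. Isg20, an RNA exonuclease, gave 6.23 and 5.79 against 7.36 and 5.99, and Samd9l, an interferon-induced inhibitor of viral replication, 8.56 and 7.66 against 9.46 and 7.93. In each of these genes the IL-15-/- array of replicate 1 was the highest of the group. Trim25, a ubiquitin ligase that acts on Ddx58, gave 8.0 and 8.08 against 9.69 and 8.28, a difference of 0.94 with an SE of 0.46 (limma adjusted p = 0.848). When that array was left out, no member was called either, and the differences of Oasl2, Isg20 and Samd9l were -0.20, -0.017 and -0.19. Those of Oas2 and Trim25 were 0.042 and 0.23.

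Rsad2, or viperin, an enzyme that makes a nucleotide which ends viral RNA chains, separated the genotypes with both replicates close to each other. It gave 5.13 and 5.07 in IL-15+/+ and 5.95 and 5.77 in IL-15-/-, a difference of 0.76 with an SE of 0.23 (limma adjusted p = 0.848), and was the 1 member with an unadjusted p under 0.05. The groups did not overlap, and the IL-15-/- array of replicate 2 alone lay 0.70 above its IL-15+/+ counterpart. With each array centred on its median that gap fell to 0.44, while the gap of replicate 1 was 0.86. Rsad2 was dim, its IL-15+/+ values lying below the lowest array median of 5.62. It was left out when only probe sets at or above the median signal were tested. Lower in IL-15-/- by the most was Parp9, an ADP-ribosyltransferase that works with Dtx3l, at 7.86 and 7.56 against 6.99 and 7.76. Both IL-15-/- arrays were above both IL-15+/+ arrays in 5 members (Irf7, Stat2, Oasl1, Rsad2, Trim25), where 23.4% of all probe sets were, and below in 3 (Irf9, Ifit1, Oas1a), where 11% were. With the arrays centred these counts were 3 and 5, against 17% and 17.5% of probe sets. When the array of the 14-month IL-15-/- mouse was left out, the difference of Rsad2 was 0.67.

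In the CD16/32LO cells, too, no member was called, where 8 of 23410 probe sets were (0.0342%), and no member had an unadjusted p under 0.05, where 1.94% of probe sets had. Members were higher in IL-15-/- in 15 cases and lower in 18, with a median difference of -0.04 against 0.13 over all probe sets, and adjusted p-values of all 33 were 0.9998. The largest difference was again that of Oasl2, with the other sign. It gave 9.01 and 8.95 in IL-15+/+ and 6.52 and 8.67 in IL-15-/-, a difference of -1.39 with an SE of 0.86. The low value was that of replicate 1, and the array of replicate 2 lay 0.28 below its counterpart.

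Lgals3bp, a secreted glycoprotein that binds galectins, gave 6.14 and 5.62 against 8.14 and 6.07, a difference of 1.23 with an SE of 0.76. Samd9l gave 9.52 and 9.06 against 7.59 and 9.69. In both genes the array farthest from the rest was the CD16/32LO array of the 14-month IL-15-/- mouse, and without it the differences were 0.19 for Lgals3bp and 0.40 for Samd9l. Oas1a, another synthetase, gave 6.88 and 6.21 against 7.19 and 6.89. Ifi35, an interferon-induced leucine zipper protein, gave 7.04 and 7.44 against 6.60 and 6.96, and Xaf1, which opposes an inhibitor of cell death, 7.58 and 6.53 against 7.49 and 7.52. The IL-15-/- arrays of Oas1a were both above and those of Ifi35 both below the IL-15+/+ arrays, while those of Xaf1 lay within their range. Without the array of the 14-month mouse the differences were 0.35 for Oas1a, -0.28 for Ifi35, 0.47 for Xaf1 and -0.31 for Oasl2, and no member was called.

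In the remaining groups Irf7 gave 6.19 and 5.95 against 5.53 and 5.83 in CD16/32LO, and Zbp1, a sensor of nucleic acid in the Z form, 7.50 and 6.72 against 6.53 and 7.17. Herc6, the mouse ligase that joins ISG15 to proteins, gave 8.0 and 6.94 against 7.86 and 7.62, and Parp14, an ADP-ribosyltransferase, 8.42 and 8.40 against 8.06 and 8.41. Only Irf7 of these 4 had groups that did not overlap. Both IL-15-/- arrays were above in 5 members (Dhx58, Eif2ak2, Oas1a, Oasl1, Rsad2) against 23.8% of probe sets, and below in 5 (Irf7, Ifit3, Oasl2, Isg20, Ifi35) against 4.81%. With the arrays centred the counts were 2 and 6, against 15.1% and 11.3%.

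The plot of genotype differences by replicate sets the 2 replicates side by side. In CD16/32HI 16 of 33 members had opposite signs in replicates 1 and 2, and in CD16/32LO 21 had. The share of all probe sets with opposite signs was not counted, so these counts are not read as particular to the members. Within replicate 1, whose 4 arrays form 1 of the sets with equal values, the median of the members was -0.06 for CD16/32HI cells and -0.24 for CD16/32LO cells. Within replicate 2 the medians were 0.21 and 0.39. These were not centred, and the IL-15+/+ arrays of replicate 2 were lower over all probe sets with a symbol. Their array medians were 5.76 in both populations, against 6.02 (CD16/32HI) and 6.0 (CD16/32LO) in IL-15-/-. The medians of replicate 2 are therefore not read as particular to the members.

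**Figure D2:**
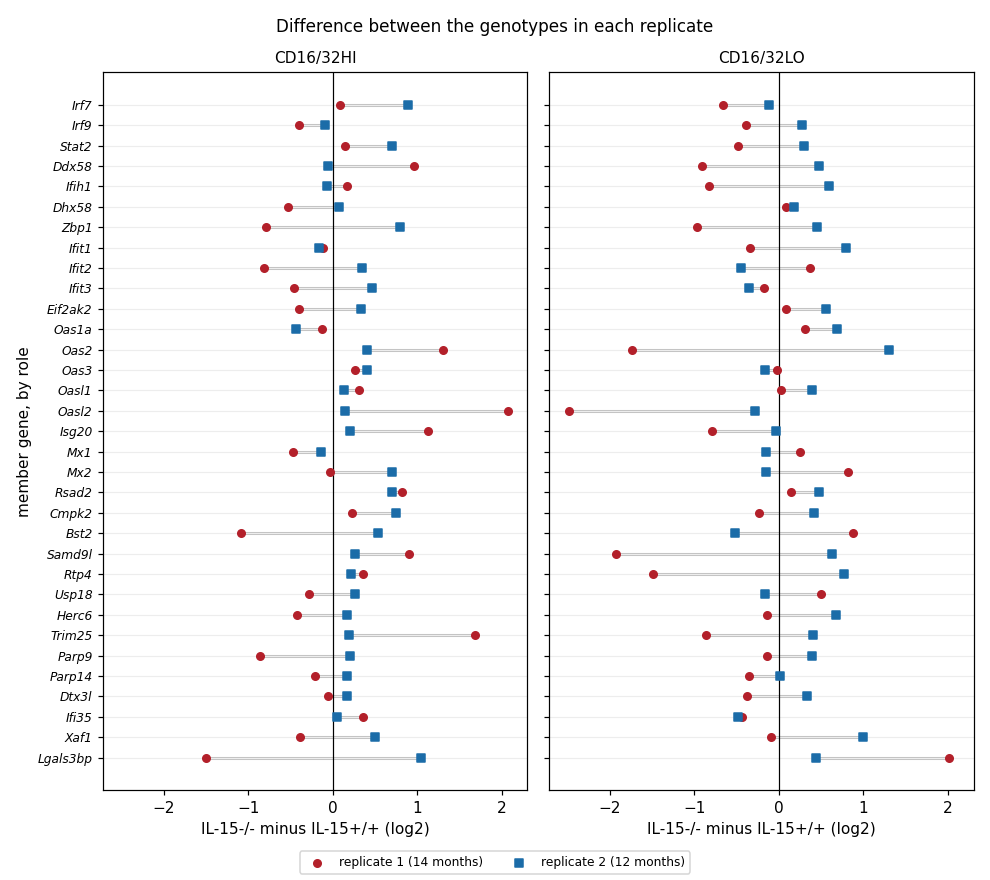
Difference in log2 signal between IL-15-/- and IL-15+/+ (x axis) for each member (y axis, by role), in CD16/32HI cells on the left and CD16/32LO cells on the right, with a circle for replicate 1 and a square for replicate 2 joined by a bar. Oasl2 in replicate 1 lies far right in CD16/32HI and far left in CD16/32LO, while its squares lie near 0.

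When the 2 arrays of each mouse were averaged, no member was called, against 40 of 23410 probe sets (0.171%), and all differences lay between -0.15 and 0.53. Rsad2 was at the top, 0.53 higher in IL-15-/- with an SE of 0.21 (limma adjusted p = 0.995), and Lgals3bp followed at 0.50 with an SE of 0.23. These 2 had an unadjusted p under 0.05, as did 4.69% of probe sets. Next came Trim25 at 0.35, Mx2 at 0.33, Oas2 at 0.32 and Cmpk2 at 0.29. Without the 14-month IL-15-/- mouse no member was called, and the differences were 0.60 for Rsad2, 0.51 for Lgals3bp and for Mx2, 0.21 for Trim25, and 0.26 for Oas2 and for Cmpk2. Mx2, a GTPase related to Mx1, gave 4.16 and 4.61 in the IL-15+/+ CD16/32HI arrays and 4.13 and 5.32 in the IL-15-/- ones, and in CD16/32LO 4.09 and 4.59 against 4.91 and 4.44. Cmpk2, a nucleotide kinase of mitochondria that lies beside Rsad2 in the genome, gave 4.52 and 3.69 against 4.75 and 4.43 in CD16/32HI and 4.73 and 4.27 against 4.49 and 4.68 in CD16/32LO. In neither gene did both populations separate the genotypes. Rsad2 and Oasl1 were the members higher in IL-15-/- in both populations of both replicates, where 9.68% of probe sets were, and none was lower, where 2.55% were. With the arrays centred Rsad2 was higher (6.41% of probe sets) and Parp14 lower (6.09%). The centred gaps of Rsad2 between the CD16/32LO arrays were 0.15 for replicate 1 and 0.24 for replicate 2. Over the mouse means 3 of 8 markers of natural killer cells or large granular lymphocytes and 3 of 6 T cell markers were called lower in IL-15-/-, and 1 of 8 neutrophil markers, Mmp9, higher. None of them is a member, and their part in the members' values was not tested. In bulk samples such as these, fewer cells of a type and less RNA per cell cannot be told apart. A test of whether the genotype difference itself differed between the populations called no member and no probe set (0%). The member with the lowest unadjusted p in it was Irf7 (limma adjusted p = 0.883), 0.48 higher in IL-15-/- in CD16/32HI and 0.39 lower in CD16/32LO, and 639 probe sets had an unadjusted p under 0.05. The widest difference of this kind, 2.49 for Oasl2, had an SE of 1.63. When 1 array of IL-15-/- replicate 2 was left out, the mouse block took up the other array of replicate 2. The mouse that ran opposite then stood alone for its genotype in both populations, and calls of that fit are not read. Without both arrays of that mouse no member was called.

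The second comparison was between the populations of the same mouse. Over all 4 mice no member and no probe set was called (0%), with 276 probe sets and 1 member, Mx1 (limma adjusted p = 0.923), at an unadjusted p under 0.05. The 14-month IL-15-/- mouse was then left out, a choice made after seeing that its markers ran opposite, and 10 of 33 members were called in the other 3 mice, where 3205 of 23410 probe sets were (13.7%). Lower in CD16/32HI were 7 members against 7.33% of probe sets, and higher were 3 against 6.36%. The median size of the difference was 0.46 over the members and 0.19 over all probe sets.

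**Figure D3:**
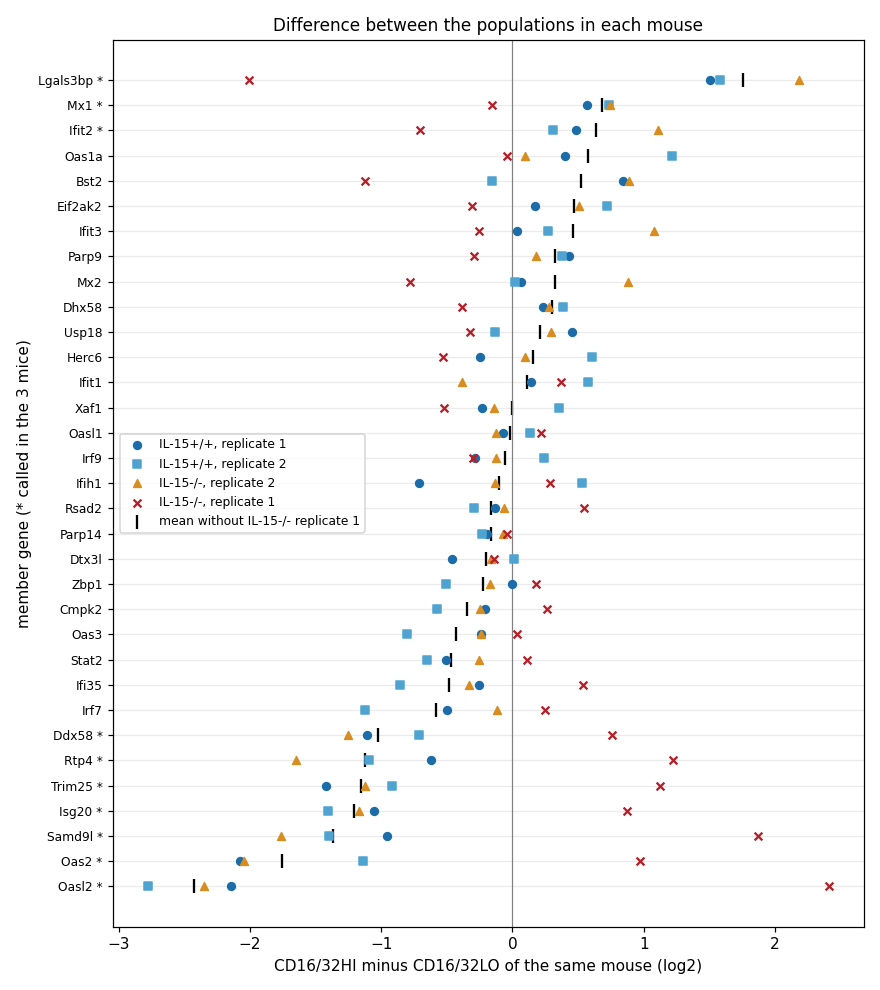
Difference in log2 signal between the CD16/32HI and CD16/32LO arrays of each mouse (x axis) for each member (y axis, sorted by the mean of 3 mice, drawn as a vertical tick). Crosses mark the 14-month IL-15-/- mouse, and a star after the name marks the 10 members called in the other 3 mice. Oasl2 at the bottom and Lgals3bp at the top have all 3 mice on one side and the cross on the other.

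The RNA effectors led those lower in CD16/32HI. Oasl2 was lower by 2.15 and 2.78 in the IL-15+/+ mice and by 2.35 in the IL-15-/- mouse of replicate 2, a fold of 5.38 on average (log2 difference -2.43, SE 0.16, limma adjusted p = 5.82e-05, n = 3 mice). Oas2 fell by 2.08, 1.14 and 2.04 in the same order (log2 difference -1.75, SE 0.20, limma adjusted p = 0.000653). Isg20 fell by 1.06, 1.40 and 1.17 (log2 difference -1.21, SE 0.14, limma adjusted p = 0.000814). In CD16/32LO, Oas2 gave 8.04, 6.38 and 7.69 and Isg20 gave 7.28, 7.19 and 7.16 in these mice. The arrays of all 3 genes did not overlap between the populations of the 3 mice. The 14-month IL-15-/- mouse had all of them higher in CD16/32HI, by 2.42, 0.97 and 0.87.

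Beside them stood other antiviral effectors and the RIG-I axis. Samd9l fell by 0.95, 1.39 and 1.76 (log2 difference -1.37, SE 0.18, limma adjusted p = 0.00117), and Rtp4, an interferon-induced protein first known for carrying receptors to the cell surface, by 0.62, 1.09 and 1.65 (log2 difference -1.12, SE 0.19, limma adjusted p = 0.00552). The levels of Rtp4 in CD16/32LO were 8.22, 7.79 and 8.56 and in CD16/32HI 7.60, 6.70 and 6.91, and its call was lost when all probe sets were tested (limma adjusted p = 0.0541). Ddx58 fell by 1.11, 0.72 and 1.25 (log2 difference -1.03, SE 0.16, limma adjusted p = 0.00271). Trim25, the ligase that acts on it, fell by 1.42, 0.92 and 1.12 (log2 difference -1.15, SE 0.15, limma adjusted p = 0.00135). The CD16/32LO levels of Ddx58 were 8.36, 8.21 and 8.69, and those of Trim25 9.42, 9.0 and 9.40, above every CD16/32HI array of the 3 mice. In the mouse left out, the CD16/32LO array was below the CD16/32HI array in each of these 4 genes, at 7.59 against 9.46 for Samd9l, 6.73 against 7.95 for Rtp4, 7.46 against 8.22 for Ddx58 and 8.56 against 9.69 for Trim25.

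Higher in CD16/32HI were 3 members, of which Ifit2 was grouped by role with Oasl2 and Mx1 with Samd9l. Lgals3bp, at 7.64, 7.21 and 8.25 in CD16/32HI, rose by 1.5, 1.58 and 2.18 (log2 difference 1.76, a fold of 3.38, SE 0.17, limma adjusted p = 0.000289). Mx1, a GTPase gene, gave 4.79, 5.24 and 5.10 in the CD16/32HI arrays, against 4.23, 4.50 and 4.35 in CD16/32LO (log2 difference 0.68, SE 0.14, limma adjusted p = 0.0114). It was dim, with every value below the median signal of every array, of which the lowest was 5.62. Ifit2, which binds viral RNA and checks its translation, gave 5.70, 5.82 and 6.17 against 5.22, 5.51 and 5.06 (log2 difference 0.64, SE 0.18, limma adjusted p = 0.0465). The groups of all 3 genes did not overlap in these mice. The calls of Mx1 and Ifit2 were lost with no mouse block (limma adjusted p = 0.0767 and 0.125), when all probe sets were tested, and without IL-15+/+ replicate 1 or IL-15-/- replicate 2, and that of Lgals3bp was kept in each.

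**Figure D4:**
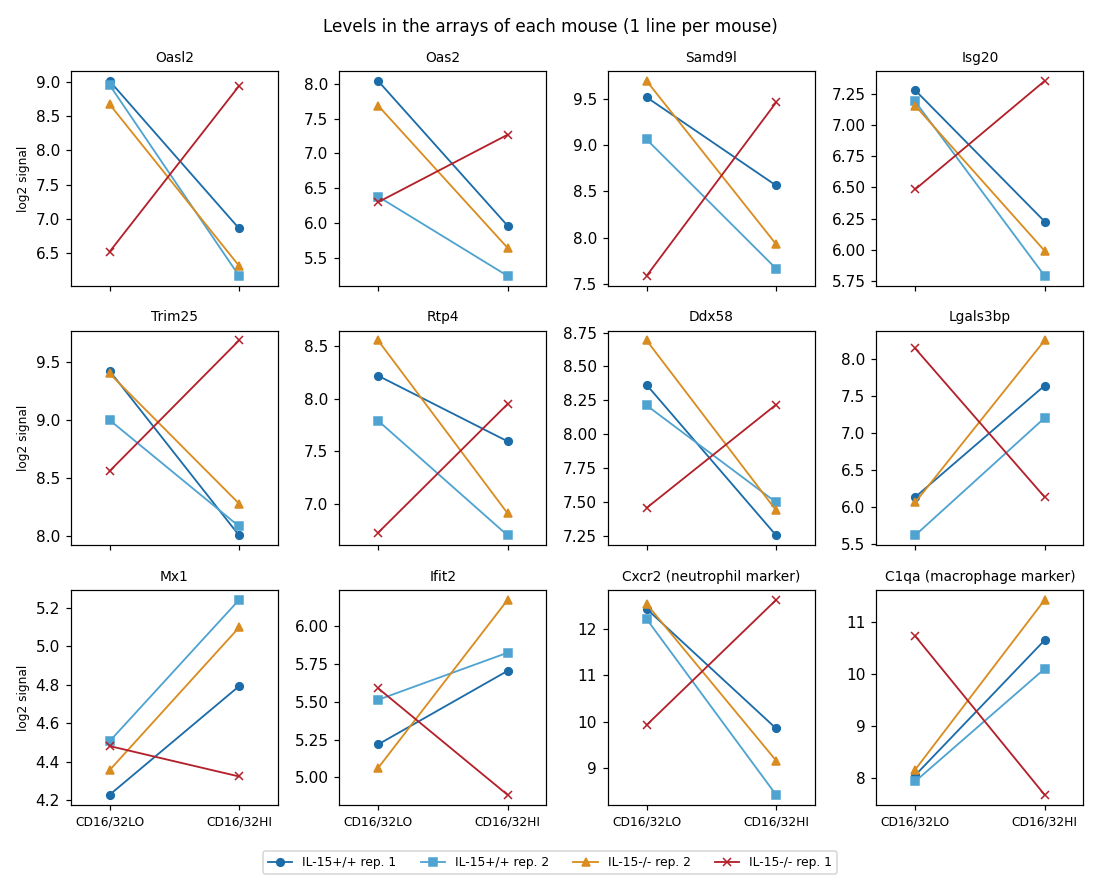
Log2 signal of the 10 called members, of the neutrophil marker Cxcr2 and of the macrophage marker C1qa (panels, each with its own y axis) in the CD16/32LO and CD16/32HI array of each mouse, joined by 1 line per mouse. The line of IL-15-/- replicate 1 slopes against the others in every panel. In the other 3 mice Cxcr2 and the panels from Oasl2 to Ddx58 are lower in CD16/32HI. C1qa, Lgals3bp, Mx1 and Ifit2 are higher there. The members were drawn because they were called in these mice, so a slope shared with a marker follows from that choice.

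Direction without a call was also counted. A member was lower in CD16/32HI in each of the 3 mice in 15 cases, against 22.6% of probe sets, and higher in each in 9, against 24%. Of these 24 genes 23 had the opposite sign in the 14-month IL-15-/- mouse, and Parp14 the same. Of all probe sets with 1 direction in the 3 mice, 84.6% had the opposite sign there, and of those called, 98.8% of the higher and 97% of the lower. Among the signalling factors Stat2 came nearest to a call (log2 difference -0.47, limma adjusted p = 0.0683) and Irf7 was at -0.58 (limma adjusted p = 0.0889), while Irf9 was at -0.06. The related genes of the oligoadenylate family did not run together, since Oas1a was at 0.57 (limma adjusted p = 0.116), Oas3 at -0.43 (limma adjusted p = 0.131) and Oasl1 at -0.02. The Ifit genes were at 0.11 for Ifit1, 0.64 for Ifit2 and 0.46 for Ifit3. Bst2, or tetherin, which holds budding virus at the cell surface, was at 0.53 (limma adjusted p = 0.152), and Eif2ak2, the kinase that stops translation when it meets double-stranded RNA, at 0.47 (limma adjusted p = 0.0859). Usp18, which takes ISG15 off proteins, was at 0.21 and Herc6 at 0.15. Of the sensors, Dhx58 was at 0.30, Ifih1, which binds long double-stranded RNA, at -0.10 and Zbp1 at -0.23. ADP-ribosylation genes lay between -0.20 and 0.33. The differences between the members themselves were not tested.

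Markers of cell types also differed between the populations of these mice. The log2 of the summed signals of the 8 neutrophil markers, which the brightest of them dominate, was 14.42, 14.59 and 14.58 in the CD16/32LO arrays of the 3 mice and 12.80, 12.22 and 11.61 in their CD16/32HI arrays, and in the mouse left out it was 12.49 and 14.76. The same value of the 7 macrophage markers was 11.99, 11.81 and 11.93 in CD16/32LO and 13.60, 13.17 and 13.86 in CD16/32HI, and 13.67 and 11.98 in the mouse left out. T cell markers were also lower in CD16/32HI (5 of 6 called, Cd4 higher), and 2 of 3 B cell markers were lower. No marker of plasmacytoid dendritic cells, the main makers of interferon in blood, was called of 4. The part of cell content in the members' values was not tested.

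The rest of the pathway was read from lists chosen by function. In neither population was a gene of these lists called between the genotypes. Of 31 measured genes that make, sense or pass on interferon, 7 were higher and 3 lower in CD16/32HI in the 3 mice, with a median of 0.01. Of all probe sets 6.36% were called higher and 7.33% lower in these mice, and the same shares apply to the lists below. The higher ones were mostly sensors and adaptors of the endosome and the cytosol. Tlr7, a receptor of single-stranded RNA, was 1.26 higher (limma adjusted p = 0.00103), and Tmem173, or STING, the adaptor of DNA sensing, 1.19 higher (limma adjusted p = 0.00109). Tlr9 was 1.06, Tlr3 1.0 and Mavs, the adaptor that Ddx58 signals through, 0.58 higher. So Ddx58 was lower and its adaptor higher in the same arrays. Irf8, a factor of macrophage and dendritic cell development, was 1.04 higher, and the receptor chain Ifnar1 0.87 higher (limma adjusted p = 0.0049), while Ifnar2 was at 0.30 (limma adjusted p = 0.228).

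Lower in CD16/32HI were Irf1 by 1.28 on the log2 scale (log2 difference -1.28, limma adjusted p = 0.000734), the receptor kinase Jak1 (log2 difference -0.85, limma adjusted p = 0.00739) and the interferon gene Ifnk (log2 difference -0.62, limma adjusted p = 0.0298). Ifnb1, the interferon that most cells make first, lay between 4.15 and 5.01 in the 8 arrays, and was not called in any comparison.

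Of 29 other genes induced by interferon, 9 were lower in CD16/32HI and 1, Ifi203, higher. Slfn4 and Slfn1, of a family that restrains cell growth and virus replication in leukocytes, had the largest differences, -3.05 (limma adjusted p = 0.000101) and -2.30 (limma adjusted p = 0.000188). Slfn4 gave 8.27, 8.42 and 9.37 in CD16/32LO and 5.62, 5.78 and 5.50 in CD16/32HI. Ifitm1, Ifitm2, Oas1b, Trim34a, Pml, Ly6e and Ddx60 were the others, at -1.11 to -0.53. Of 11 genes that answer mainly to interferon gamma, 6 were higher in CD16/32HI and none lower, namely the chemokines Cxcl9 (1.63) and Cxcl10 (0.79) and the GTPases Gbp3, Gbp7, Gbp8 and Iigp1 (0.79 to 0.95). These lists were read in the same arrays as the members and share their mice. In the mouse left out, every gene called from these lists had the opposite sign, such as Slfn4 (3.23), Tlr7 (-1.69) and Gbp8 (-1.63). Of all called probe sets, 98.8% of the higher and 97% of the lower did.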

How the data were processed

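Biotin-labelled RNA was hybridised to Affymetrix Gene Chip Whole Transcript 1.0ST arrays, 1 per sample. The authors deposited log2 signals per probe set made with RMA in Affymetrix Expression Console, whose versions are not given in the sources used here. All 8 arrays were used as deposited. Probe sets were named from GEO's platform annotation. 21789 probe sets had 1 symbol, 1621 several and 12147 none, and a gene was read from a probe set of a single symbol, the one of highest mean where there were several. Differences were fitted with limma 3.58.1 in R 4.3.3 on the 23410 probe sets with a symbol, with Benjamini-Hochberg adjustment over all of them and a threshold of 0.05. Genotypes were compared within each population in 1 fit of the 4 groups and over mouse means, and populations with the mouse as a block. The fits were tested on simulated data. A probe set or array gives no count, so that the number of arrays limits the precision. The 2 arrays of a group come from 2 tumors. Within a population, genotype p-values rest on 1 spread shared by the 4 groups, which limma adjusts using all probe sets. That fit treats the 2 arrays of a mouse as independent. Over mouse means the p-values rest on the spread between mice of 1 genotype. Between populations they rest on the spread of the differences within mice. The study's methods name a 1-way ANOVA per probe set with a filter of 3-fold. At an unadjusted p under 0.05 the ANOVA gave 1108 probe sets and 1 member in CD16/32HI and 831 and none in CD16/32LO. With the 3-fold filter it gave 10 and 20 probe sets and no member, and after Benjamini-Hochberg adjustment none.

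The genotype comparisons share their replicate numbers with age. Deviations of arrays with the same number from their group means were correlated between groups over probe sets. The 2 populations of 1 genotype, taken as the same mice, correlated at 0.37 in IL-15+/+ and at -0.45 in IL-15-/-. Groups of different genotype correlated at 0.06 to 0.20. In the main fits the number was used as a block only within a mouse. The members were set by name, and they and the lists were chosen with earlier results of these data known. In the text were named the members past the threshold, the 6 largest differences of each comparison, at least 1 of each role, and the genes of other lists past the threshold. Alternatives were another scaling, all probe sets or only bright ones, the replicate block, the sets of arrays with equal values as a block, and leaving out each array or mouse. The comparison in 3 mice was added after seeing the data.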

Additional observations from a re-analysis of the deposited data

How the results depend on the processing

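No member was called between the genotypes, within either population or over mouse means, under any alternative run, the replicate block included (0 members called with it in CD16/32HI and CD16/32LO). Between the populations within mice, leaving out 1 array gave 0 to 10 called members (0% to 13.7% of probe sets). The 10 came when an array of the 14-month IL-15-/- mouse (replicate 1) was left out. With the mouse as a block, leaving out 1 or both of its arrays is the same fit as in the other 3 mice. These counts could therefore not differ. For the difference of the genotype effect between populations, leaving out 1 array left 1 mouse in a genotype, and calls of such fits are not read. By 3-fold of mean signal alone 1 member, Oasl2, and 382 probe sets passed. In the other 3 mice the count of 10 called members was 3 by 3-fold alone (377 probe sets). It was 8 with no mouse block (6.25% of probe sets) and 7 over all probe sets (5.61%), all of them among the 10. Over bright probe sets it was 10 of the 23 members tested (28.5% of probe sets), 8 of them shared. Stat2 and Eif2ak2 stood in place of Mx1 and Ifit2, which were too dim to be tested. Without 1 mouse it was 8 to 11. All 8 were shared without IL-15+/+ replicate 1 (7.68% of probe sets called). Shared were 10 of 11 (with Bst2) without IL-15+/+ replicate 2 (14.8%), and 8 of 9 (with Irf7) without IL-15-/- replicate 2 (8.53%).

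Directions turned in a few cases. In CD16/32HI, without 1 array, the IL-15-/- minus IL-15+/+ difference ran from -0.20 to 2.42 for Oasl2, from -0.017 to 1.35 for Isg20 and from -0.19 to 1.35 for Samd9l. In CD16/32LO it ran from -1.70 to 0.40 for Samd9l and from -0.076 to 0.98 for Xaf1, and that of Xaf1 was -0.042 with the sets of equal values as a block. Over mouse means it ran from -0.28 to 0.91 for Oas2 and from -0.035 to 0.61 for Cmpk2. The cause was not tested. With 2 mice a genotype, a difference smaller than the spread between mice was not detectable, and larger ones could also go uncalled. Rsad2 in CD16/32HI differed by 0.76 with group SDs of 0.04 and 0.13 and was not called (limma adjusted p = 0.848). The lack of a call therefore does not show that a member was unchanged.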
